A study of Mus musculus with 6 samples.

Results

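Collagen genes were examined in RNA-seq counts of mouse alveolar type II cells, the surfactant-making epithelial cells of the lung that also renew the alveolar surface after injury. Members were all gene symbols of the form Col, number, a, number that had at least 10 counts summed over the 6 libraries. This rule found 35 of 43 such symbols, among 23337 symbols in all and 15513 that reached the same count minimum. The 8 symbols below it were Col2a1, Col9a1, Col9a2, Col11a1, Col19a1, Col24a1, Col25a1 and Col28a1, with 0 to 9 counts each.

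Both groups carried a Cre recombinase whose activity depends on tamoxifen (CreER), under control of the promoter of surfactant protein C (SpC), together with the red reporter ROSA-Tomato. The mutant group (3 libraries, genotype SpC-CreER/Dlk1flox/ROSA-Tomato) carried a floxed Dlk1, a Notch-pathway membrane protein gene, in addition, and the wild-type group (3 libraries, SpC-CreER/ROSA-Tomato) did not. All mice had received Pseudomonas aeruginosa to injure the lung, and Tomato-positive cells were sorted 10 days later. One protocol field also mentions 8 days of culture, so the state of the cells at RNA isolation is not settled. Only cells in which the surfactant protein C promoter drove the recombinase would carry the deletion and the label. Age, sex and strain background were not given in the sources used here. Nor do they say whether libraries stand for separate animals, and the p-values therefore speak of the spread between libraries alone.

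Collagens are extracellular matrix proteins built of chains that wind into helical trimers, and a trimer may hold copies of 1 gene product or of several. Fibril-forming collagens such as types I and III give interstitial tissue its tensile strength and are products mainly of fibroblasts. Network-forming type IV collagen makes the sheet of the basement membrane on which alveolar epithelium rests. Its Col4a1 and Col4a2 chains form the network found in most tissues, while the Col4a3, Col4a4 and Col4a5 chains form a second network known from kidney glomerulus and alveolus. Type VI collagen forms beaded filaments beside basement membranes, from Col6a1, Col6a2 and a further chain.

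Type IV chain genes lie head to head in pairs, and the stretches around their start sites are shown because the members of a pair are compared with each other further on. RefSeq promoter windows (GRCm38.p6, from 250 bases before to 50 after a start site) matched 28 of the 35 members. The runs below lie outside GENCODE exons except the first, which is the 22-base stretch that both the Col4a1 and the Col4a2 transcripts contain at their opposed starts (plus strand, chr8:11312805-11312826). The following runs are upstream of Col4a4, the neighbour of Col4a3 (minus strand, chr1:82586850-82586975), of Col4a5 (plus strand, chrX:141475169-141475384) and of Col4a6 (minus strand, chrX:141474077-141474326), whose start sites are 1343 bases apart. The last 2 runs are upstream of Col6a2 (minus strand, chr10:76623631-76623880) and Col6a3 (minus strand, chr1:90843972-90844221), type VI chains with very different levels here. Capitals mark a GC box, a CCAAT box or a TATA box on either strand, and the letters searched for are spelled out with their counts.
Col4a1 and Col4a2, shared start: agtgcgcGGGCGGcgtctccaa
Col4a4: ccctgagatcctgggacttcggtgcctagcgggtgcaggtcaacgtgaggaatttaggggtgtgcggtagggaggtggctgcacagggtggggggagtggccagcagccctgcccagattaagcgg
Col4a5: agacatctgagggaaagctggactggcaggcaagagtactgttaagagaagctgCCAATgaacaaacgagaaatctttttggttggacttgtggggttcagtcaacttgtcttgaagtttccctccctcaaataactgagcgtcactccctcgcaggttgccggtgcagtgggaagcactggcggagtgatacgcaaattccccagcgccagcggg
Col4a6: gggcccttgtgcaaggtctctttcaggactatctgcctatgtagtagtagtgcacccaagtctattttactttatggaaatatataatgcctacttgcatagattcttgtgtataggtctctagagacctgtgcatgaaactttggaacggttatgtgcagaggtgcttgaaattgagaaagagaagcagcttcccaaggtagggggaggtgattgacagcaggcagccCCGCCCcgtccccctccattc
Col6a2: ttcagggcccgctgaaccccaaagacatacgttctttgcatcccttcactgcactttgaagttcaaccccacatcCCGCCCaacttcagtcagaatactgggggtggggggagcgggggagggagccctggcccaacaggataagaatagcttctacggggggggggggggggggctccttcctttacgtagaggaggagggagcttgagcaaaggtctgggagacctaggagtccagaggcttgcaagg
Col6a3: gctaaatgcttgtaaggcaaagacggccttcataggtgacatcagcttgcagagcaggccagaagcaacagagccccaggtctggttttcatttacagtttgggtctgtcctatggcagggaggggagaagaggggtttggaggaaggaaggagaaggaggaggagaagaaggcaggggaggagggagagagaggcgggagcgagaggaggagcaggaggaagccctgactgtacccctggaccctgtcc

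The libraries held 22511461 to 30695994 counts, and a count of 0 allowed a level of up to 0.0977 to 0.133 CPM (counts scaled to a library total of 1000000). Values per library are given in the order 1, 2, 3 within each group. The targeted gene Dlk1 had 2, 0 and 0 counts in mutants 1, 2 and 3 and 2, 0 and 2 in wild types 1, 2 and 3, too few to check the labels. The 10 type II cell markers, all present in every library, totalled 129200 CPM in mutant 1, below the 137000 to 160000 CPM found elsewhere. Mutant 1 stood apart in markers of other cells, as given beside the results, and wild type 2 had an Xist level of 184.6 CPM against at most 2.93 CPM in the rest.

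The 35 collagen genes were sorted into 3 classes by CPM of the library total, and these values are a description with no test. In 14 genes the level in mutant 1 exceeded that of every other library by 5-fold or more. In 16 of the remaining genes the median of the 5 libraries other than mutant 1 was at least 1 CPM, and these are called type II cell collagens here. The name stands for that level and does not show which cells made the transcript. Some markers of other cells reached this level in the same libraries, such as Tek (2.0 to 4.37 CPM) and Tagln (1.38 to 2.41 CPM). Others did not, such as Lum and Tcf21 with 0 counts. The last 5 genes met neither rule. Over all genes with at least 10 counts, 8.84% met the 5-fold rule, against 40.0% of the collagen genes. The count minimum includes mutant 1, so some genes were members through that library alone. Examples are Col13a1 (10 counts there, 0 elsewhere) and Col6a4 (29 and 0). The same minimum stood behind the share over all genes, and nothing is read from the difference. In none of the other 5 libraries was a collagen gene at least 5-fold above all the rest. Nearest to the fold limit were Col6a6 at 5.68-fold (2 counts in the highest other library) and Col8a2 at 6.27-fold on the inside, and Col4a6 at 3.62-fold and Col6a3 at 3.12-fold on the outside. Nearest to the level limit was Col4a6, with a median of 1.52 CPM, on the inside and Col6a3, at 0.276 CPM, on the outside. Col3a1 also had a median of 1.52 CPM and was placed among the genes high only in mutant 1 by the fold rule.

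**Figure D1:**
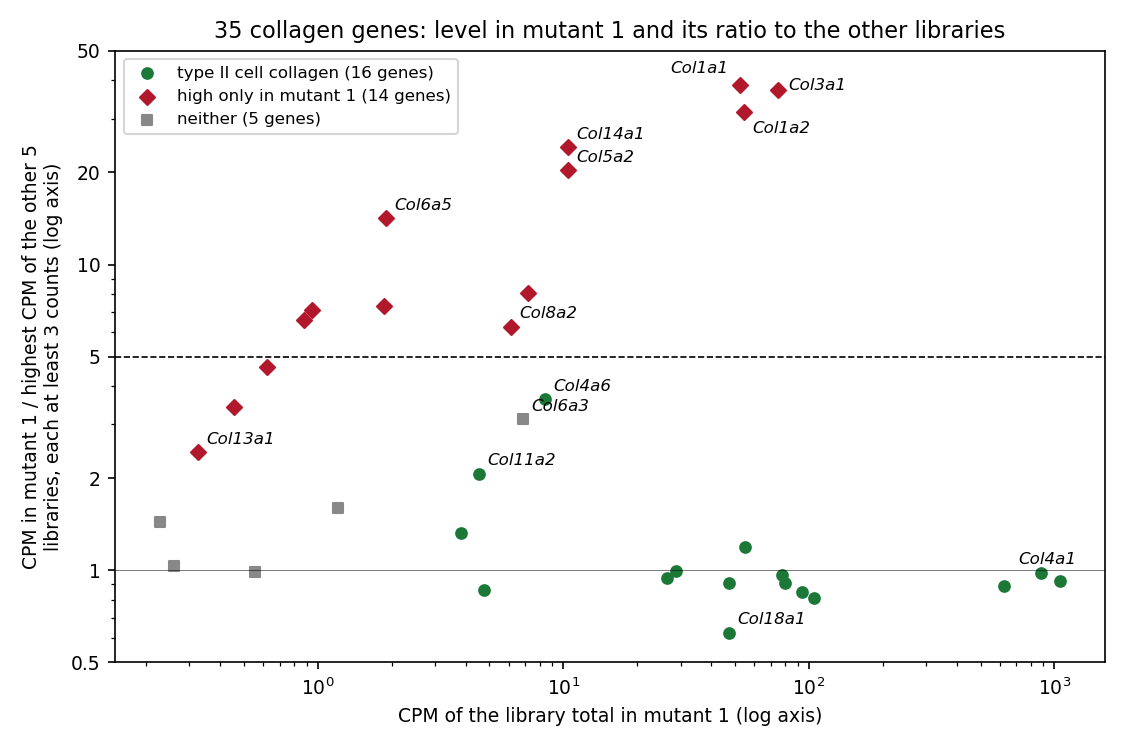
Each of the 35 collagen genes is placed by its CPM in mutant 1 (x, log axis) and by the ratio of that level to the highest of the other 5 libraries, each counted as at least 3 counts (y, log axis), with the 5-fold limit dashed. The 16 type II cell collagens lie at 0.626 to 3.62, the 5 genes in neither class at 0.986 to 3.12, and Col1a1, Col1a2 and Col3a1 at 31.6 to 38.6; 3 of the 14 genes high only in mutant 1 fall under 5-fold once the floor of 3 counts is used.

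A GC box (GGGCGG on either strand) lay in the windows of 11 of 14 type II cell collagen genes and 7 of 11 genes high only in mutant 1, and in 35.7% of all 32851 promoter windows. A CCAAT box (those letters on either strand) lay in 7 of 14 and 3 of 11, against 37.4% of all windows. A TATA box (TATAAA on either strand) lay in 1 of 14 and 3 of 11, against 13.6% of all windows. Genes were counted once if any of their windows held the letters, while the shares of all are per window, so the units differ. The windows of Col4a1 and Col4a2 overlap by 78 bases and are not separate observations. Matches describe these letters in these windows and do not mark bound sites.

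Collagen transcripts made up 0.272% to 0.337% of each library, and nearly all of this came from the 16 type II cell collagens. Their sum was 3141, 2863 and 3316 CPM in mutants against 2714, 2727 and 2773 CPM in wild types. Each mutant sum lay above each wild-type sum, a difference that was not tested. The type II cell collagens were 93.1% of collagen counts in mutant 1 against 99.7% to 99.9% elsewhere. Col4a1 and Col4a2 alone were 57.4% of collagen counts in mutant 1 and 59.7% to 62.6% elsewhere, and Col6a1 with Col6a2 added 21.1% to 27.1%. In bulk RNA, fewer cells of a type and less RNA per cell cannot be told apart.

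Levels of different genes were compared per kilobase of the principal GENCODE transcript, as TMM-normalised CPM per kb (mean ± SD over 6 libraries). Col4a1 stood at 147.8 ± 12.7, Col6a1 at 144.8 ± 17.7 and Col4a2 at 128.1 ± 6.83. The SD ranges of Col4a1 and Col6a1, and those of Col6a1 and Col4a2, overlapped. Col6a2 followed at 25.2 ± 4.02. Next came 5 genes of which each overlapped its neighbour in SD range, though Col4a5 and Col23a1 did not overlap each other: Col4a5 at 10.7 ± 1.14, Col18a1 at 9.72 ± 3.49, Col4a3 at 8.78 ± 1.39, Col4a4 at 8.77 ± 1.25 and Col23a1 at 7.47 ± 1.21. Below them were Col16a1 at 4.98 ± 0.544, Col12a1 at 3.54 ± 0.889 and Col7a1 at 2.64 ± 0.475. Col20a1 stood at 0.844 ± 0.155, and Col4a6, Col5a3 and Col11a2 lay between 0.371 and 0.406. The Col4a6 level of 0.406 ± 0.385 rested on mutant 1 and was 0.25 ± 0.0616 over the other 5 libraries, the lowest of the 16 there.

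**Figure D2:**
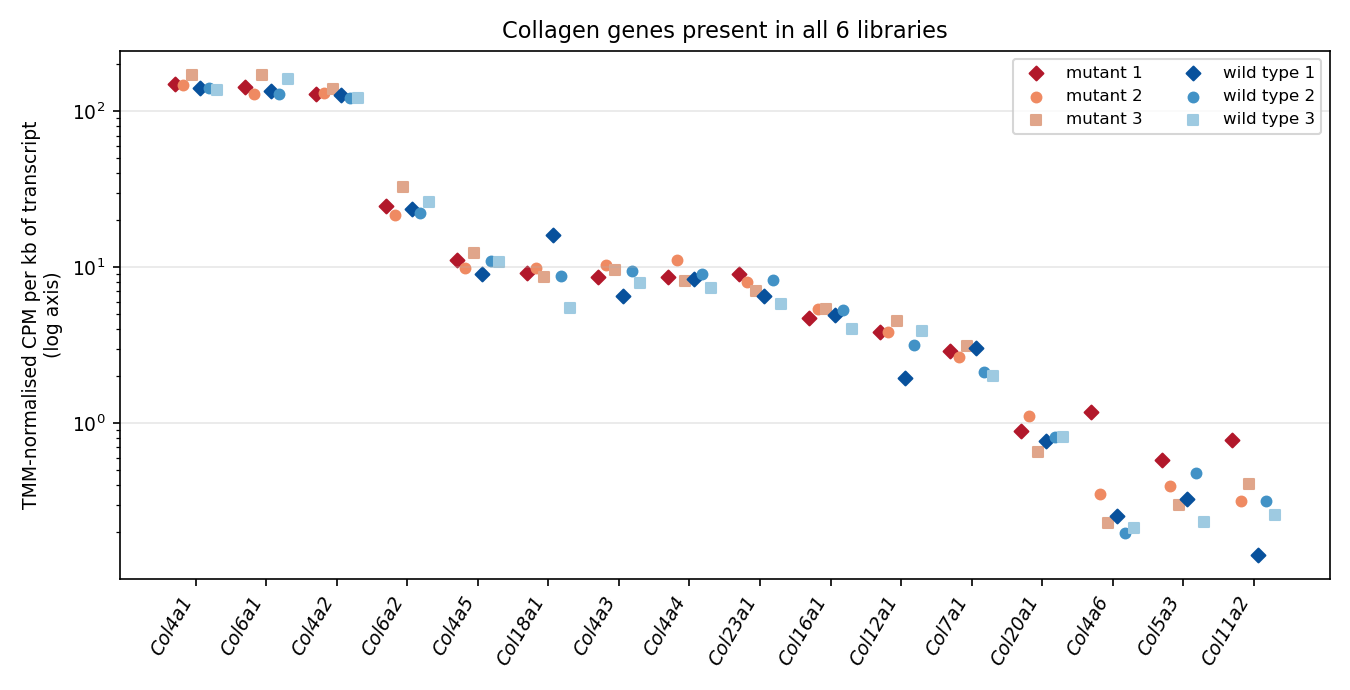
TMM-normalised CPM per kb of transcript (y, log axis) of the 16 type II cell collagens in each of the 6 libraries, with mutants in red shades and wild types in blue shades. Col4a1, Col6a1 and Col4a2 average 128.1 to 147.8, mutant 1 (dark red) lies within the other libraries for most genes and above them for Col4a6, Col11a2, Col5a3 and Col23a1, and wild type 1 (dark blue) holds the highest Col18a1 and the lowest Col12a1.

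Type IV collagen supplied 6 of the 16 genes. On the scale of TMM-normalised CPM, Col4a1 reached 984, 978 and 1136 in mutants against 928, 939 and 900.1 in wild types. Col4a2 reached 828, 846 and 901 in mutants against 817, 783 and 784 in wild types. In both genes each mutant library lay above each wild-type library, by a small margin for Col4a2. The log2 fold change, mutant minus wild type, was 0.16 ± 0.10 (SE, n = 3 against 3) for Col4a1 and 0.11 ± 0.08 for Col4a2, with adjusted p-values of 0.749 and 0.79 in edgeR's quasi-likelihood test. They were the 2 of 16 type II cell collagens, 12.5%, whose groups did not overlap, where 11.7% of all 12899 tested genes did not (5.23% with the mutants higher).

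The chains of the other network were lower and less even between libraries. Col4a3 reached 74.5, 88.95 and 82.6 normalised CPM in mutants against 55.7, 80.6 and 68.1 in wild types, so the groups overlapped, with wild type 1 lowest, while each mutant lay above the wild type of its number. Col4a4 reached 87.6, 111.8 and 82.3 in mutants against 84.8, 91.2 and 74.4 in wild types, with mutant 2 highest and again each mutant above the wild type of its number. Col4a5 reached 72.7, 64.3 and 80.5 in mutants against 58.9, 71.6 and 71.1 in wild types, and on this X-linked gene wild type 2 lay within the range of the others. The log2 fold changes were 0.27 ± 0.14, 0.17 ± 0.14 and 0.11 ± 0.12 in the order Col4a3, Col4a4, Col4a5, with adjusted p-values of 0.739, 0.796 and 0.842 in edgeR.

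Col4a6, the remaining chain gene of the family, was a low transcript. It reached 7.87, 2.35 and 1.52 normalised CPM in mutants against 1.69, 1.32 and 1.43 in wild types. Mutant 1 was highest, mutant 2 lay above each wild type and mutant 3 lay inside the wild-type range. The log2 fold change of Col4a6, 1.40 ± 0.63 (edgeR adjusted p = 0.737), was 0.39 without mutant 1. Markers of other cells were high in the same library, fibroblast markers at 539 CPM against 128 to 180 CPM in the others, and their part in this gene's level was not tested.

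Ratios within a library, from counts per kb, show how even the proportion of partner chains was. Col4a1 to Col4a2 ran from 1.11 to 1.23 in the 6 libraries, a coefficient of variation of 3.87%. Col4a3 to Col4a4 ran from 0.775 in wild type 1 to 1.19 in mutant 3, and Col4a5 to Col4a3 from 0.946 to 1.38. Col4a2 exceeded Col4a3 by 12.6-fold to 19.5-fold. Col4a5 to Col4a6 was 9.4 in mutant 1 and 27.8 to 55.1 in the others, a wider range than that of the Col4a1 and Col4a2 pair. Col4a6 had only 33 to 55 counts outside mutant 1, while Col4a1 and Col4a2 had at least 17878 in every library. The ratio with Col4a6 therefore carries more counting error, and the part of that error in the range was not tested. In RefSeq, Col4a1 overlaps Col4a2 and Col4a3 overlaps Col4a4 at their starts, so some reads could be assigned to either gene.

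**Figure D3:**
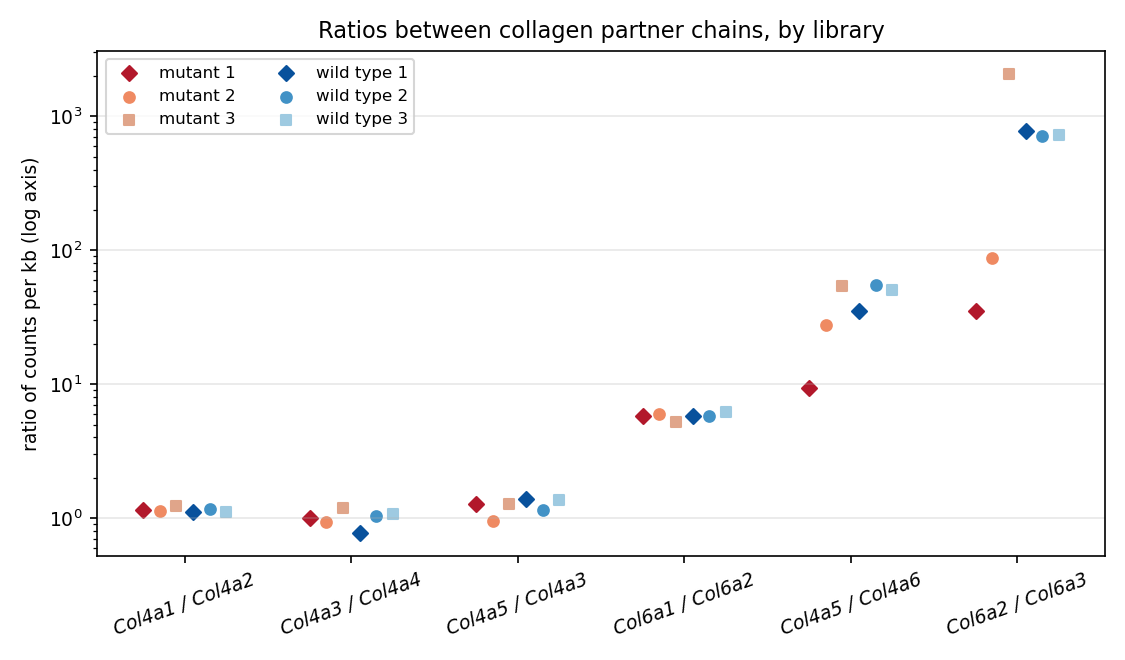
Ratio of counts per kb between collagen partner chains (y, log axis) in each of the 6 libraries. Col4a1 / Col4a2 stays between 1.11 and 1.23 and Col6a1 / Col6a2 between 5.25 and 6.16, while Col4a5 / Col4a6 falls to 9.4 and Col6a2 / Col6a3 to 34.9 in mutant 1.

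Type VI collagen was represented by 2 abundant chains and a nearly missing one. Col6a1 reached 583, 528 and 702 normalised CPM in mutants against 556, 530.5 and 663 in wild types. Col6a2 reached 97.95, 85.4 and 128.8 in mutants against 92.8, 87.8 and 103.6 in wild types. In both, mutant 3 was highest, mutant 2 lowest and the groups overlapped. The log2 fold changes were 0.05 ± 0.14 and 0.14 ± 0.15 (edgeR adjusted p = 0.941 and 0.849), and both turned negative without mutant 3, at -0.07 and -0.05.

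Col6a1 to Col6a2, per kb, ran from 5.25 to 6.16 over the 6 libraries. Col6a3, the usual partner of both, had 210, 52 and 4 counts in mutants against 6, 7 and 8 in wild types, so mutants 1 and 2 were high and mutant 3 was low. Fibroblast markers totalled 146.4 CPM in mutant 2, inside the 127.9 to 180.4 CPM of mutant 3 and the wild types. Gsn alone was 134 CPM of that total, so the total says little about the other fibroblast markers. Pericyte and smooth muscle markers totalled 3.96 CPM in mutant 2, inside 2.98 to 4.22 CPM. Single markers differed, with Des at 9 counts in mutant 2 and 0 in those 4 libraries, and Loxl1 at 0.632 CPM above 0.12 to 0.282 CPM. Fn1 was at 9.53 CPM, inside 3.33 to 13.9 CPM, and Pdgfra was at 0 counts in mutant 2. Their part in the Col6a3 level of mutant 2 was not tested. Col6a2 exceeded Col6a3 per kb by 34.9-fold in mutant 1, 87.5-fold in mutant 2, 2080-fold in mutant 3 (4 counts of Col6a3) and 713-fold to 772-fold in wild types. The alternative partner genes Col6a4, Col6a5 and Col6a6 had 29, 58 and 14 counts in mutant 1 and 0 to 2 in any other library.

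Among the other type II cell collagens, Col18a1, a basement membrane collagen whose end fragment is endostatin, varied most between wild types. It reached 44.05, 47.5 and 41.8 normalised CPM in mutants against 77.3, 42.3 and 26.4 in wild types. The mutants lay inside the range of the wild types. Its log2 fold change was -0.13 (95% interval -0.94 to 0.68, edgeR adjusted p = 0.941), the only negative value of the 16, and it was 0.37 without wild type 1. Col12a1, a collagen that binds along the surface of fibrils, reached 44.3, 44.03 and 52.1 in mutants against 22.4, 36.7 and 44.9 in wild types, with wild type 1 lowest, wild type 3 inside the mutants' range and each mutant above the wild type of its number. Its log2 fold change was 0.43 (-0.12 to 0.98, edgeR adjusted p = 0.739).

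Col23a1, a collagen anchored in the cell membrane, reached 51.3, 45.8 and 40.02 normalised CPM in mutants against 37.2, 46.7 and 32.7 in wild types. Col16a1, a fibril-associated collagen, reached 24.8, 28.2 and 28.0 in mutants against 25.8, 27.8 and 20.9 in wild types. Col7a1, the collagen of the anchoring fibrils that tie epithelium to its stroma, reached 26.9, 24.7 and 28.8 in mutants against 27.9, 19.6 and 18.5 in wild types. In all 3 genes the groups overlapped, with wild type 3 lowest. Their log2 fold changes were 0.23 ± 0.15, 0.12 ± 0.13 and 0.29 ± 0.17, with edgeR adjusted p-values of 0.768, 0.839 and 0.746.

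The other type II cell collagens were low. Col20a1, of the fibril-associated family, reached 4.45, 5.61 and 3.28 normalised CPM in mutants against 3.84, 4.08 and 4.11 in wild types. The fibril-forming Col5a3 reached 3.57, 2.44 and 1.83 in mutants against 2.01, 2.92 and 1.43 in wild types. Col11a2, also fibril-forming, reached 4.24, 1.71 and 2.19 in mutants against 0.777, 1.72 and 1.38 in wild types. The groups overlapped in each of these genes, and mutant 1 was highest for Col5a3 and Col11a2. The log2 fold change of Col11a2 was 1.06 ± 0.50 with all libraries (edgeR adjusted p = 0.739) and 0.59 without mutant 1. Col5a3 moved from 0.30 to 0.01 without mutant 1, and Col20a1 had 0.15.

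Mutant and wild-type libraries were compared to ask how type II cells differ without Dlk1 during repair, and no collagen gene passed the test. Of the 35 members, 22 passed the filter on low counts and 13 did not, so the counts that follow do not cover all members. The 22 were the 16 type II cell collagens and 6 of the 14 genes high only in mutant 1. At an adjusted p of 5% edgeR called 0 of 22 members and 0 of all 12899 genes, a share of 0%. An unadjusted p under 0.05 was found for 3 of the 22 (13.6%), against 6.58% of all genes, or 3.69% with the mutants higher. These were Col1a1, Col3a1 and Col5a1, which were placed in their class by the value of mutant 1, so nothing is read from them. Without mutant 1 edgeR gave 0 of 21 members an unadjusted p under 0.05, against 5.85% of all genes. DESeq2 gave no p for 5 of the 22 members (Col1a1, Col1a2, Col3a1, Col8a2 and Col14a1). Of the other 17 it called 0, against 38 of the 12707 genes with an adjusted p (0.299%). Its unadjusted p was under 0.05 for 3 of the 17 (Col4a1, Col4a6 and Col5a1), against 6.88% of all genes with a p. Col5a1 was placed in its class by the value of mutant 1, so nothing is read from it. The DESeq2 log2 fold change of Col4a6 was 1.41 with all libraries and 0.39 without mutant 1. Without mutant 1, DESeq2 called 0 of 19 members and 22 genes with an adjusted p (0.18%). Limma-voom called 0 of both, with 3 members under an unadjusted 0.05 against 10% of all genes. With the replicate number as a block edgeR again called 0 of both, and 2 members (Col4a3 and Col12a1) were under an unadjusted 0.05, against 6.72% of all genes.

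For the type II cell collagens, 15 of 16 log2 fold changes were positive and the median was 0.17, against 51.1% positive and a median of 0.00 over all tested genes. All 16 were read in the same 6 libraries and some neighbours could share reads, so their signs are not independent. The fits below reuse these libraries, and the counts of signs were not tested. Without mutant 1 again 15 of 16 were positive with a median of 0.18, against 48.1% positive and a median of -0.01 over all genes. In that fit edgeR gave 0 of the 16 an unadjusted p under 0.05. DESeq2 without mutant 1 gave 2 of the 16 an unadjusted p under 0.05, against 763 of 12951 genes with a p. With limma-voom 14 of 16 were positive, and 3 of the 16 had an unadjusted p under 0.05, against 10% of all genes. With the replicate number as a block 16 of 16 were positive, with a median of 0.16, against 50.3% positive and a median of 0.00 over all genes. Col18a1 was among these 16 at 0.00 (unadjusted p = 0.995 in edgeR with the block). In 6 of the 16 (Col4a1, Col4a2, Col4a3, Col4a4, Col4a6 and Col12a1) each mutant lay above the wild type of its number, against 15.3% of all genes. The 95% intervals stayed inside 1.5-fold either way for 7 of the 16 genes and inside 2-fold for 13. They reached past 2-fold for Col4a6, Col5a3 and Col11a2.

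**Figure D4:**
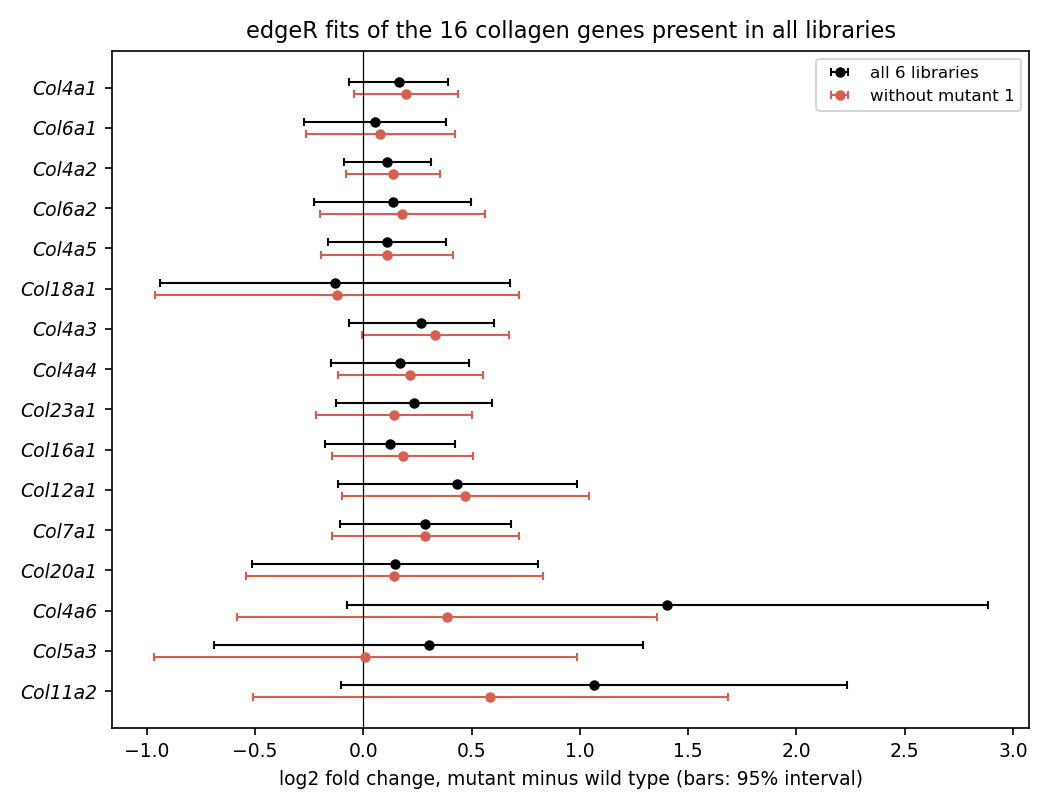
edgeR log2 fold changes, mutant minus wild type (x), with 95% intervals for the 16 type II cell collagens, ordered by level, with all 6 libraries (black) and without mutant 1 (red). Every interval includes 0, and 15 of 16 point estimates are above 0 in each fit.

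The 14 genes high only in mutant 1 were led by Col3a1, Col1a2 and Col1a1, and the sum over all 14 was 223 CPM in that library, compared with 4.04 to 6.14 CPM in the other 5. Of the 14, 5 were fibril-forming, 3 were of the beaded-filament family, 2 network-forming, 2 transmembrane, 1 fibril-associated and 1 a multiplexin, a basement membrane type. Their high value in mutant 1 is what placed them here. Col3a1, the type III collagen gene, had 2291 counts in mutant 1 against 21 to 50 elsewhere. Col1a2 had 1675 counts in mutant 1 and 4 to 43 elsewhere, and its type I partner Col1a1 had 1614 against 7 to 34. Per kb, Col1a1 to Col1a2 was 0.869 in mutant 1 and 0.253 to 3.38 in the others, where few counts stood behind it.

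Fibril-nucleating type V collagen was split between the classes, with Col5a1 (220 counts in mutant 1, 2 to 21 elsewhere) and Col5a2 (320 counts, 0 to 13 elsewhere) among these genes and Col5a3 among the type II cell collagens. The fibril-associated Col14a1 had 322 counts in mutant 1 and 3 to 11 elsewhere. The short-chain network collagens had 188 counts against 5 to 22 for Col8a2 and 27 against 0 to 3 for Col8a1. Col15a1, a relative of Col18a1 found in vessel and muscle basement membranes, had 57 counts against 0 to 6. The transmembrane Col17a1, a hemidesmosome protein of basal epithelial cells, had 19 counts against 0 or 1, and Col13a1 had 10 against 0.

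Outside mutant 1, the 3 most abundant of these genes overlapped between the groups. Col3a1 was at 1.54 and 0.741 normalised CPM in mutants 2 and 3 against 1.65, 0.921 and 2.04 in wild types. Col1a1 was at 0.899 and 1.20 against 0.685, 0.28 and 1.38. Col1a2 was at 0.471 and 0.917 against 0.183, 1.001 and 1.75. For Col1a1 and Col1a2 both mutants lay inside the wild-type range, and for Col3a1 mutant 3 lay just under it.

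Markers of other cell types, none of them a collagen, were compared in the same libraries. Over all genes with at least 10 counts, 8.84% were 5-fold or more higher in mutant 1 than in every other library. Of 14 fibroblast markers, 12 were 5-fold or more higher in mutant 1 than in every other library, and the list totalled 539 CPM there against 128 to 180 CPM. Much of that sum was Gsn, at 118 to 173 CPM outside mutant 1. Lum and Tcf21 were at 0 counts in all 5 other libraries, and Pdgfra was at 0 to 0.079 CPM there against 2.28 CPM in mutant 1. Pericyte and smooth muscle markers summed to 36.6 CPM in mutant 1 against 2.98 to 4.22 CPM, with 5 of 8 at least 5-fold higher, and endothelial markers to 124.7 CPM against 5.80 to 10.7 CPM, with 7 of 8.

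Mesothelial markers summed to 135.8 CPM in mutant 1 against 44.4 to 68.04 CPM (4 of 5 at least 5-fold higher), leukocyte markers to 323 against 14.96 to 30.99 CPM (7 of 8), and club and ciliated cell markers to 7857 against 378 to 635 CPM (5 of 6). Cartilage markers summed to 14.99 against 0 to 1.74 CPM, of which Chad made 14.3 CPM, and Acan, Matn1 and Sox9 were at 0.293 CPM or less. Schwann cell markers overlapped, at 13.3 CPM against 6.83 to 17.8 CPM. Type I cell markers totalled 3716 CPM in mutant 1, inside the 3429 to 4100 CPM of the rest. The part of any of these cells in the collagen values of mutant 1 was not tested. By rule, the type II cell collagens leave out genes that were 5-fold or more higher in mutant 1. In that library 14 of the 16 were no more than 1.32-fold above the highest other library, the exceptions being Col4a6 and Col11a2. Because of the rule, nothing is read from this.

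The 5 genes in neither class were near the floor apart from Col6a3. Col27a1, a fibril-forming collagen of cartilage, had 37, 0 and 5 counts in mutants against 17, 5 and 8 in wild types. Col9a3 had 17, 1 and 7 counts in mutants against 0, 6 and 14 in wild types. Col10a1 had at most 8 and Col22a1 at most 7 counts in any library. None of the 5 passed the filter, and no fold change is given for them. In RefSeq, Col9a3 overlaps Tcfl5 and Col10a1 overlaps Nt5dc1, so reads could be shared.

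Genes that make, bind or cut collagen were described from lists of 53 genes, of which 35 were tested and 0 were called in either direction by edgeR or DESeq2. An unadjusted p under 0.05 was reached by 4 of the 35 (11.4%, against 6.58% of all genes), and the groups did not overlap in 5 (14.3%, against 11.7% of all genes). Of 22 tested biosynthesis genes, 14 log2 fold changes were positive and 8 negative, with a median of 0.08. Without mutant 1 the balance turned to 10 positive and 12 negative. Serpinh1, the chaperone of newly made collagen, stood at 75.1 to 95.2 normalised CPM in all 6 libraries, and P4hb, a subunit of prolyl hydroxylase, at 807 to 1002 CPM. Bmp1, the protease that trims procollagen, stood at 686 to 1009 CPM.

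The biosynthesis genes with the smallest p were Pcolce, P4ha2, Leprel4 (now P3h4) and Fkbp14. Pcolce, an enhancer of procollagen trimming, reached 23.8, 23.02 and 22.5 normalised CPM in mutants against 19.1, 12.5 and 18.0 in wild types, and the groups did not overlap. Its log2 fold change was 0.48 ± 0.16 with an edgeR adjusted p of 0.737. P4ha2, a catalytic subunit of prolyl hydroxylase, averaged 96.6 ± 6.42 against 81.3 ± 7.87 CPM (SD), Leprel4 16.8 ± 1.56 against 20.9 ± 3.70 CPM and Fkbp14, a foldase of the endoplasmic reticulum, 9.72 ± 1.51 against 11.9 ± 0.966 CPM. The level in mutant 1 exceeded every other library by 5-fold or more for 8 of 33 enzymes, with no count minimum. Over all genes with at least 10 counts the share was 8.84%. Among the 8, Adamts14, a procollagen protease, stood at 3.41 against 0 to 0.0856 CPM. P4ha3, at 0.366 CPM, and Glt25d2 (now Colgalt2), at 0.61 CPM, were low even in mutant 1.

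Of 9 tested receptor genes, 4 were positive and 5 negative, and without mutant 1, where 8 were tested, 2 were positive and 6 negative. Ddr1, the epithelial receptor tyrosine kinase for collagen, reached 58.7, 47.2 and 50.6 normalised CPM in mutants against 37.2, 39.1 and 31.4 in wild types. The groups did not overlap, and the smallest gap lay between mutant 2 and wild type 2. Its log2 fold change was 0.54 ± 0.12 (95% interval 0.25 to 0.83), with an adjusted p of 0.737 in edgeR and 0.0589 in DESeq2, and it was 0.45 without mutant 1. Lair1, an inhibitory collagen receptor of leukocytes, stood at 5.67 CPM in mutant 1 and 0.141 to 0.599 elsewhere, and Ddr2, the mesenchymal relative of Ddr1, at 3.78 against 0.128 to 0.741 CPM. Mrc2, an endocytic receptor for collagen, stood at 15.3, 31.2 and 39.1 CPM in the mutants and at 74.03, 35.5 and 27.8 CPM in the wild types, with wild type 1 highest. Itgb1, the integrin chain shared by collagen receptors, averaged 549 ± 52.5 against 551 ± 32.5 CPM.

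Of the 10 collagenases and inhibitors 4 were tested. Timp2, an inhibitor of matrix metalloproteinases, reached 126.5, 81.3 and 103.7 normalised CPM in mutants against 75.2, 73.4 and 79.97 in wild types. Mutant 2 was 81.3 and wild type 3 was 79.97, so the groups were apart by a small margin. The log2 fold change was 0.45 ± 0.15 (edgeR adjusted p = 0.737) and 0.28 without mutant 1. Mmp14, a membrane-bound collagenase, averaged 69.85 ± 5.05 against 64.5 ± 11.7 CPM. Timp3 ran from 180 to 486 CPM with wild type 3 highest, and Ctsk, a collagen-cutting lysosomal protease, stood at 13.2 CPM in mutant 1 against 0.841 to 2.38 CPM in the others.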

How the data were processed

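TruSeq mRNA-Seq libraries of sorted Tomato-positive lung cells were made from 3 mutant and 3 wild-type samples. The authors deposited whole-number counts per gene symbol, 1 file per library, not normalized. The submitters' processing notes name the build mm9 and the tools CASAVA and DESeq2. For the aligner, the counting program, the annotation and strandedness nothing is given in the sources used here, so overlapping genes can share reads. Groups came from the sample titles.

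Genes were filtered with filterByExpr by group (12899 kept), scaled by TMM and tested with edgeR 4.0.16 in R 4.3.3 (quasi-likelihood F-test, two-sided, Benjamini-Hochberg over all tested genes, threshold 5%). The mutant minus wild-type contrast used all 6 libraries. DESeq2 1.42.0 (same filter), limma-voom (limma 3.58.1, quality weights), other scalings and filters, robust dispersion, the replicate number as a block and leaving out each library were alternatives. Normalised CPM means TMM-normalised CPM. Lengths were principal transcripts of GENCODE M21 (GRCm38), not the authors' annotation. Floors of 3 counts cover counting error only. The procedure was tested on simulated counts with known changes.

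The members, classes and gene lists were chosen with earlier results of these data known. The rule named every type II cell collagen with its values in every library, the 2 genes of highest CPM per family among those high only in mutant 1, and the 4 genes of smallest p in each list. Of the genes in neither class it would have named those of smallest p, but none was tested. Other genes named (the remaining genes high only in mutant 1, the 5 in neither class, Serpinh1, P4hb, Bmp1, Itgb1 and Adamts14) were chosen after their values were seen. Of the 53 pathway genes 6, and of the 82 markers 2, were matched through an older symbol. Loxl1 stands in a marker list and a pathway list. Replicate pairs gave 18.4 to 76.7 in chi-square per degree of freedom, so none agreed within sampling noise. The deviations of libraries that share a number (mutant with wild type) correlated at 0.312, 0.211 and 0.169. Those of libraries with unlike numbers correlated at -0.246 to 0.0686. Deviations from a mean of 3 libraries are not independent, so these values cannot establish that the numbers pair the samples. The labels do not say what a number shares, so the main fit had no pairing term and the block is an alternative.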

Additional observations from a re-analysis of the deposited data

How the results depend on the processing

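The number of collagen genes called, 0, and that of pathway genes called, 0, held in all 15 alternatives, with DESeq2 giving no p for 5 of the 22 collagen genes. With the replicate block edgeR also called 0 collagen genes and 0 of all genes, so the block changed no call. Over all genes DESeq2 called 38, and 22 without mutant 1 (an alternative added after seeing the data), against 0 in edgeR. Leaving out each library in turn gave 0 to 1 called genes over all genes. At a 10-fold limit 9 collagen genes were high only in mutant 1, at 3-fold 16 and with TMM-normalised CPM 14. Of the 16 type II cell collagens, 11 kept the sign of their log2 fold change in all alternatives. The sign turned with limma-voom for Col18a1 (0.03), Col20a1 (-0.09) and Col5a3 (-0.11), and with the replicate block for Col18a1 (0.00). Leaving out single libraries gave -0.06 for Col20a1 without mutant 2, -0.07 for Col6a1 and -0.05 for Col6a2 without mutant 3, -0.01 for Col6a1 without wild type 2 and 0.37 for Col18a1 without wild type 1. Over the fits that left out 1 library, the values ran from -0.43 to 0.37 for Col18a1, -0.06 to 0.32 for Col20a1, -0.07 to 0.15 for Col6a1 and -0.05 to 0.26 for Col6a2. The causes were not tested. The lowest adjusted p of any type II cell collagen over all alternatives was 0.417. Col4a6, Col5a3, Col11a2 and Col20a1 were under 10 CPM in every library, and the 95% intervals of the first 3 reached past 2-fold.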
